A study of Mus musculus with 8 samples.

Results

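The miRNAs described here are mmu-miR-26a-5p, mmu-miR-26b-5p and mmu-miR-378a-3p (the prefix is dropped below), 3 of the 1881 mouse miRNAs on the array. They were picked by name, as miRNAs known to promote myoblast differentiation and muscle metabolism, at a time when their signals on these same arrays were already known. Their levels and differences between groups, with intervals and limma calls, are therefore given as a description, without a p-value. None of these values is a test of the 3 miRNAs. The other arms and paralogues of the 2 families, and further miRNAs that act in myoblasts, are set beside them. Their test runs across the 538 miRNAs detected on at least 2 arrays. The lists of these miRNAs were also chosen with earlier results of these data known, which limits what their p-values can show.

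The study measured miRNAs released into culture medium by primary mouse muscle cells in transwell plates, where a membrane with 0.4 µm pores separates the cells of an insert from those of the bottom chamber while both share the medium. The bottom chamber received 2.5 and the insert 1.5 times 1e5 cells from the hind limbs of newborn mice aged 1 to 3 days. Each group's name gives the lower cells first and those of the insert second. There were 2 samples of WT/WT, 3 of G93A/WT (mutant cells below, WT cells above) and 3 of G93A/G93A. Medium was collected after 2 days in vitro.

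WT here means that the cells carried the normal human SOD1 transgene (strain B6SJL(Tg-SOD1)2Gur/J). G93A means the human SOD1 transgene with the mutation that models amyotrophic lateral sclerosis (strain B6SJL(Tg-SOD1*G93A)1Gur/J). Both strains are hemizygous, and the sources used here do not name the promoter of either transgene. Human SOD1, an antioxidant enzyme, was thus carried by the cells of every group, and medium of cells without a transgene was not analysed here, nor was cell-free medium or the combination with G93A cells in the insert alone. The samples carry the tag Male. The labels name no litter or culture day, so p-values measure the spread between these samples, which may be partly technical. RNA from 3 extractions of each medium was pooled and 150 ng of miRNA was labelled per sample. A value is therefore a share of the released RNA rather than an amount per volume, and fewer cells, less release per cell and faster loss of a miRNA in the medium cannot be told apart. The proliferation medium held 10% foetal bovine serum, which brings miRNAs of its own, and was replaced on the day of collection by differentiation medium with 2% horse serum; the labels do not say which of the 2 media was sampled.

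A miRNA is a short RNA that guides the Argonaute proteins to messenger RNAs, mainly through its seed, the bases 2 to 8 from its 5′ end. The miR-26 family lies within genes for small phosphatases of the Ctdsp family and represses, among other targets, the Polycomb methyltransferase Ezh2 and Smad proteins of TGF-β and BMP signalling, both brakes on the myogenic programme. miR-378a-3p represses MyoR, a factor that opposes MyoD, and takes part in the control of mitochondrial and lipid metabolism. All 3 are made in many tissues besides muscle, so that their presence in medium does not identify the releasing cell.

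The miR-26 sequences show how alike the 2 family members are. They are mature sequences from RefSeq on GRCm38.p6, 5′ to 3′, with the seed in capitals.
miR-26a-5p: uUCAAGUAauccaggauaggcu
miR-26b-5p: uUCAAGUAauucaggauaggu
Counted from the 5′ end with miR-26a-5p first, they differ by C11U and C21U, so that 19 of 21 compared positions are the same, and miR-26a-5p is 22 bases long against 21. Both carry the seed UCAAGUA, which no other array miRNA in the RefSeq table shares. miR-26a-5p comes from 2 genes, Mir26a-1 (chr9:119031811-119031832) and Mir26a-2 (chr10:126995543-126995564), and miR-26b-5p from Mir26b (chr1:74394324-74394344). These positions are those of the mature sequences, all on the plus strand. In the RefSeq gene table Mir26a-1 lies within Ctdspl, Mir26a-2 within Ctdsp2 and Mir26b within Ctdsp1. Because 2 genes make the same mature miR-26a-5p, the array cannot assign its signal to either one.

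The paralogues of miR-378a-3p on the array are also close in sequence to each other, which bears on how separately they are measured. The sequence of miR-378a-3p itself was not in the RefSeq table used, so it was not compared with theirs.
miR-378b: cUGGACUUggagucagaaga
miR-378c: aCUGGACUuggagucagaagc
miR-378d: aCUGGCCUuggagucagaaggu
With miR-378c first, miR-378d differs by A6C and C21G over 21 compared positions, and A6C falls in the seed. miR-378b starts 1 base later than miR-378c, and once shifted by that base it differs by C21A alone (position in miR-378c), with 19 of 20 positions the same. Their mature sequences lie at chr11:88352839-88352858 (miR-378b, plus strand), chr14:46954905-46954925 (miR-378c, minus strand) and chr10:126710355-126710376 (miR-378d, minus strand). Whether the array's probes tell such close relatives apart was not tested.

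All 3 miRNAs were detected on all 8 arrays, among 423 miRNAs of which this held, and 1295 miRNAs were detected on none. Their signal divided by the scanner software's error estimate was 4.71 to 10.1 for miR-26b-5p, 9.24 to 12.9 for miR-26a-5p and 11.6 to 13.6 for miR-378a-3p. The arrays differed in brightness: the summed signal was 115122 to 139644 units in WT/WT, 143713 to 202908 in G93A/WT and 119252 to 135152 in G93A/G93A, and 450 to 461, 497 to 563 and 451 to 483 miRNAs were detected. Signals were therefore scaled so that every array had the same 75th percentile over the 423 miRNAs detected everywhere, and values below are log2 of the scaled signal unless given in units. All arrays shared 1 slide. In row 1 WT/WT 1 lay beside the 3 arrays of G93A/WT, and in row 2 WT/WT 2 lay beside those of G93A/G93A. Each mutant group is thus in one row with 1 WT/WT array, and the 2 mutant groups are linked across rows through the WT/WT arrays alone.

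miR-26a-5p was highest in the medium of the mixed co-culture and lowest where both chambers held mutant cells. Its deposited signal was 25.2 and 27.7 units in WT/WT, 40.0, 76.5 and 57.8 units in G93A/WT, and 20.6, 21.9 and 30.9 units in G93A/G93A. Scaled, it stood at 5.18 and 4.97 in WT/WT, at 5.22, 5.50 and 5.45 in G93A/WT, and at 4.57, 4.84 and 4.91 in G93A/G93A. No 2 groups overlapped after scaling, although G93A/WT 1 lay just above WT/WT 1 and G93A/G93A 3 just below WT/WT 2. The group means were 5.07 ± 0.15 (SD, n = 2), 5.39 ± 0.15 (SD, n = 3) and 4.77 ± 0.18 (SD, n = 3), so the step on either side of WT/WT was about as large as the sum of the SDs.

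miR-26b-5p was the dimmest of the 3 miRNAs on the array and followed the same order of groups with a wider spread. Its deposited signal was 7.57 and 8.18 units in WT/WT, 13.2, 21.7 and 19.9 units in G93A/WT, and 7.94, 5.30 and 12.0 units in G93A/G93A. Scaled, it stood at 3.44 and 3.21 in WT/WT, at 3.63, 3.69 and 3.91 in G93A/WT, and at 3.20, 2.79 and 3.54 in G93A/G93A. Every G93A/WT array lay above every array of the other groups, whereas WT/WT and G93A/G93A overlapped, with G93A/G93A 3 above both WT/WT arrays. The means were 3.33 ± 0.17 (SD, n = 2), 3.74 ± 0.15 (SD, n = 3) and 3.18 ± 0.37 (SD, n = 3).

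miR-378a-3p had another order: it was highest in WT/WT medium and lower in both media that mutant cells had conditioned. Its deposited signal was 98.6 and 101 units in WT/WT, 109, 153 and 122 units in G93A/WT, and 61.8, 69.8 and 83.6 units in G93A/G93A. Before scaling, the G93A/WT arrays were thus above WT/WT. After scaling, which lowered the bright G93A/WT arrays, it stood at 7.15 and 6.84 in WT/WT, at 6.67, 6.50 and 6.52 in G93A/WT, and at 6.16, 6.51 and 6.35 in G93A/G93A. Both WT/WT arrays lay above all 6 others, and the 2 mutant groups overlapped in that G93A/G93A 2 lay between G93A/WT arrays. The means were 6.99 ± 0.22 (SD, n = 2), 6.57 ± 0.09 (SD, n = 3) and 6.34 ± 0.18 (SD, n = 3).

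**Figure D1:**
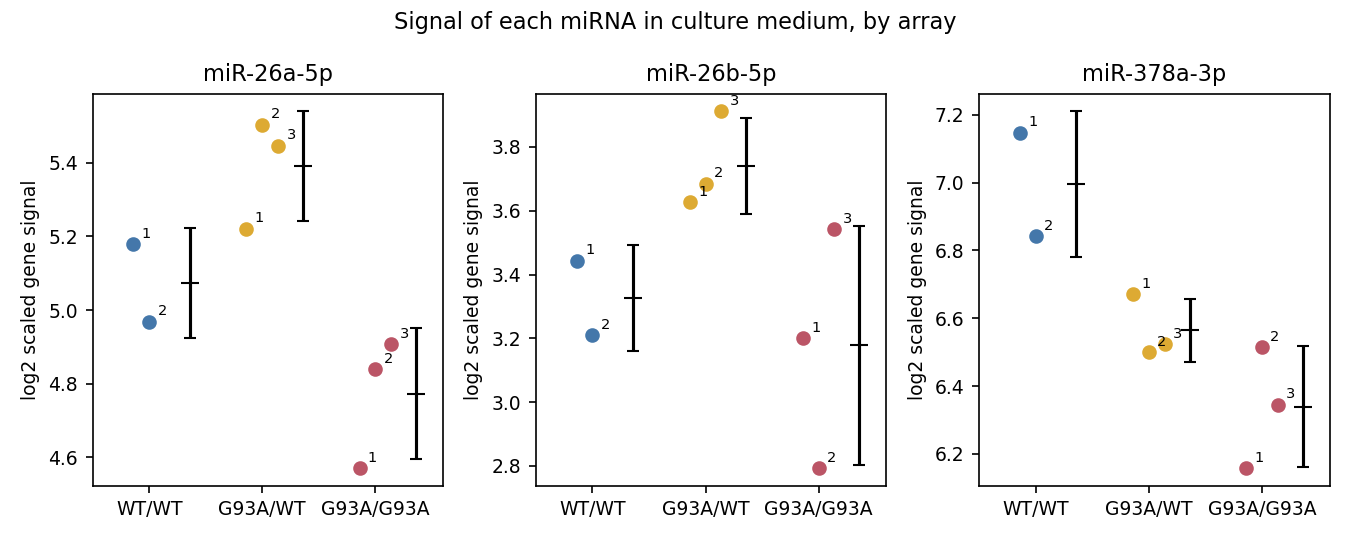
Log2 scaled signal of miR-26a-5p, miR-26b-5p and miR-378a-3p (vertical axis) in each medium sample of the 3 groups (horizontal axis); points are samples with their replicate number and bars are the mean ± SD. miR-26a-5p and miR-26b-5p are highest in G93A/WT (means 5.39 and 3.74), whereas miR-378a-3p is highest in WT/WT (mean 6.99).

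Between G93A/G93A and WT/WT medium, miR-378a-3p differed most of the 3. Its log2 difference was −0.65 ± 0.15 (SE; 95% interval −1.01 to −0.30), or 1.57-fold higher in WT/WT. miR-26a-5p was lower by −0.30 ± 0.15 (SE; −0.66 to 0.06), 1.23-fold higher in WT/WT, with an interval that includes no difference. miR-26b-5p differed by −0.15 ± 0.22 (SE; −0.68 to 0.38). Of the 3, 1 (miR-378a-3p) was past limma's adjusted threshold, where 8.55% of the 538 tested miRNAs were called, 3.72% as higher and 4.83% as lower. The groups did not overlap for miR-26a-5p and miR-378a-3p, both lower in G93A/G93A, as was so for 22.7% of tested miRNAs (18.0% were higher without overlap). Blocking on the slide row compares G93A/G93A with WT/WT 2 alone and equals the difference within row 2. It gave −0.50 for miR-378a-3p, −0.20 for miR-26a-5p and −0.03 for miR-26b-5p, and none of the 3 was past the threshold.

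In G93A/WT against WT/WT medium the miR-26 family and miR-378a-3p lay on opposite sides of zero. miR-26a-5p was 1.25-fold higher in G93A/WT, a log2 difference of 0.32 ± 0.15 (SE; −0.04 to 0.68), and miR-26b-5p 1.33-fold higher, 0.41 ± 0.22 (SE; −0.11 to 0.94). miR-378a-3p was lower by −0.43 ± 0.15 (SE; −0.78 to −0.07), 1.35-fold higher in WT/WT. In limma 0 of 3 were past the adjusted threshold, where 3.90% of tested miRNAs were called, 3.16% as higher and 0.743% as lower. None of the 3 overlapped between these groups. Among all tested miRNAs 19.3% were likewise higher without overlap and 26.0% lower. Within slide row 1, against WT/WT 1 alone, and equally with the row as a block, the values were 0.21, 0.30 and −0.58 in the order miR-26a-5p, miR-26b-5p and miR-378a-3p.

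G93A/G93A and G93A/WT medium differ in the cells of the insert, mutant or WT, over the same mutant cells below. Here the mean differences of the miR-26 family were larger than that of miR-378a-3p, although their ratios within an array overlapped between these groups. miR-26a-5p was lower in G93A/G93A by −0.62 ± 0.14 (SE; −0.94 to −0.30), 1.53-fold higher in G93A/WT, and miR-26b-5p by −0.56 ± 0.20 (SE; −1.03 to −0.09), 1.48-fold higher in G93A/WT. miR-378a-3p differed by −0.23 ± 0.13 (SE; −0.54 to 0.09). Of the 3, 1 (miR-26a-5p) was past limma's adjusted threshold, where 10.6% of tested miRNAs were called, 5.39% as higher and 5.20% as lower. Both miR-26 miRNAs were without overlap, as were 19.1% of tested miRNAs in this direction and 15.6% in the other. When the row was fitted as a block, the values shrank to −0.41 for miR-26a-5p and −0.33 for miR-26b-5p, that of miR-378a-3p turned to 0.08, and none of the 3 was past the threshold. No slide row held both groups, so no within-row value exists. This comparison shares the G93A/G93A arrays with the first and the G93A/WT arrays with the second.

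**Figure D2:**
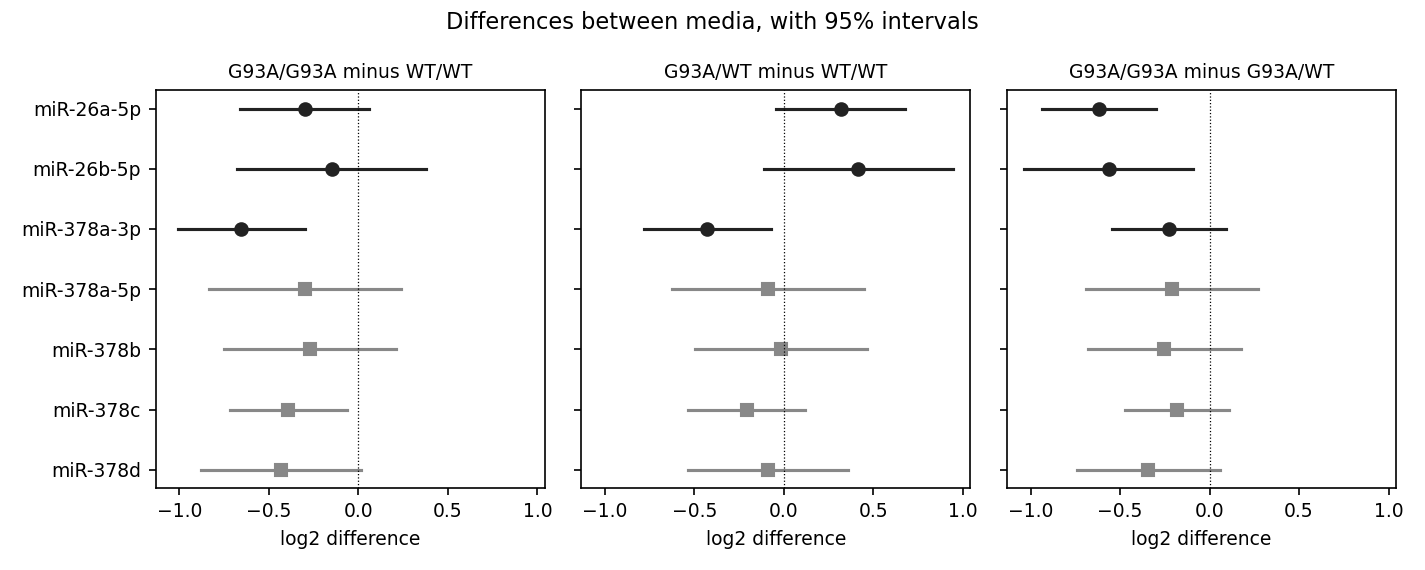
Log2 difference between groups (horizontal axis) with its 95% interval from limma for the 3 miRNAs and the 4 measured miR-378 relatives (vertical axis), one panel per comparison; black circles are the 3, grey squares the relatives, and the dotted line marks no difference. The interval of miR-378a-3p lies below zero in both panels with WT/WT (−0.65 and −0.43), and that of miR-26a-5p lies below zero between G93A/G93A and G93A/WT (−0.62).

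The array holds 7 other arms and paralogues of these families. The other arms of miR-26, miR-26a-1-3p, miR-26a-2-3p and miR-26b-3p, were detected on no array. miR-378a-5p, the other arm of the miR-378a hairpin, and miR-378b, miR-378c and miR-378d were detected on all 8 arrays. Their means in WT/WT, G93A/WT and G93A/G93A were 4.70, 4.61 and 4.40 for miR-378a-5p, 7.52, 7.50 and 7.25 for miR-378b, 2.96, 2.75 and 2.57 for miR-378c, and 7.11, 7.02 and 6.68 for miR-378d.

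All 4 measured miR-378 relatives lay below zero in all 3 comparisons, and none passed the test in limma. The comparisons share groups, so these signs are not separate observations. Between G93A/WT and WT/WT they were not stable. In the authors' processed values miR-378b was 0.10 and miR-378d 0.03, while miR-378a-5p (−0.21) and miR-378c (−0.06) stayed below zero. Without scaling all 4 lay above zero, with a median of 0.68. Over all tested miRNAs 50.9%, 44.1% and 58% lay below zero, in the order of the comparisons below. Between G93A/G93A and WT/WT the differences were −0.43 ± 0.19 for miR-378d (SE; adjusted p = 0.201), −0.39 ± 0.14 for miR-378c (SE; adjusted p = 0.124), −0.30 ± 0.23 for miR-378a-5p (SE; adjusted p = 0.456) and −0.27 ± 0.20 for miR-378b (SE; adjusted p = 0.448). Their median was −0.34, beside −0.01 over all tested miRNAs, and 1 of the 4 had an unadjusted p under 0.05. miR-378c and miR-378d were lower in G93A/G93A without overlap between these groups, as were 22.7% of tested miRNAs. Both were also lower without overlap in G93A/G93A against G93A/WT, as were 19.1% of tested miRNAs. Between G93A/WT and WT/WT the median was −0.09, beside 0.04 over all tested miRNAs, and the adjusted p-values from limma ran from 0.359 (miR-378c) to 0.964 (miR-378b). Between G93A/G93A and G93A/WT it was −0.23, beside −0.10, and the adjusted p-values from limma ran from 0.204 (miR-378d) to 0.498 (miR-378a-5p). In both of these comparisons 0 of the 4 had an unadjusted p under 0.05.

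Ratios of 2 miRNAs on the same array do not depend on the factor by which the array was scaled, and they show whether 2 miRNAs differed unequally. The log2 ratio of miR-378a-3p to miR-26a-5p was 1.97 and 1.87 in WT/WT, 1.45, 1.00 and 1.08 in G93A/WT, and 1.59, 1.67 and 1.44 in G93A/G93A. It was lower than in WT/WT by −0.75 in G93A/WT and by −0.35 in G93A/G93A, without overlap in either case. Between G93A/G93A and G93A/WT it differed by 0.39, with overlap. The ratio of miR-378a-3p to miR-26b-5p had means of 3.67, 2.82 and 3.16 in the same order of groups, lower without overlap in G93A/WT alone. The ratio of miR-26b-5p to miR-26a-5p, with means of −1.75 ± 0.02 (SD, n = 2), −1.65 ± 0.15 (SD, n = 3) and −1.59 ± 0.39 (SD, n = 3), overlapped in every comparison.

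miR-378a-3p was also lower relative to its own relatives. Its log2 ratio to miR-378d was −0.11 and −0.13 in WT/WT, −0.47, −0.44 and −0.47 in G93A/WT, and −0.18, −0.28 and −0.56 in G93A/G93A. Its log2 ratio to miR-378a-5p, the other arm cut from the same hairpin, was 2.27 and 2.32 in WT/WT and lower on all 6 other arrays, by −0.34 on average in G93A/WT and −0.36 in G93A/G93A. The ratios to miR-378b and miR-378c were lower as well in both groups, by −0.41 and −0.22 in G93A/WT and by −0.38 and −0.26 in G93A/G93A. For all 4 relatives both mutant groups were without overlap with WT/WT, and for all 4 they overlapped each other. As miR-378a-3p was chosen with these arrays known, these ratios carry no test, and each rests on the same 2 WT/WT arrays. All 4 ratios also share miR-378a-3p, so they are not separate observations. How often ratios of other miRNAs are without overlap was not computed, for these or the ratios above. Of single tested miRNAs, 26.0% in G93A/WT and 22.7% in G93A/G93A were lower than in WT/WT without overlap.

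**Figure D3:**
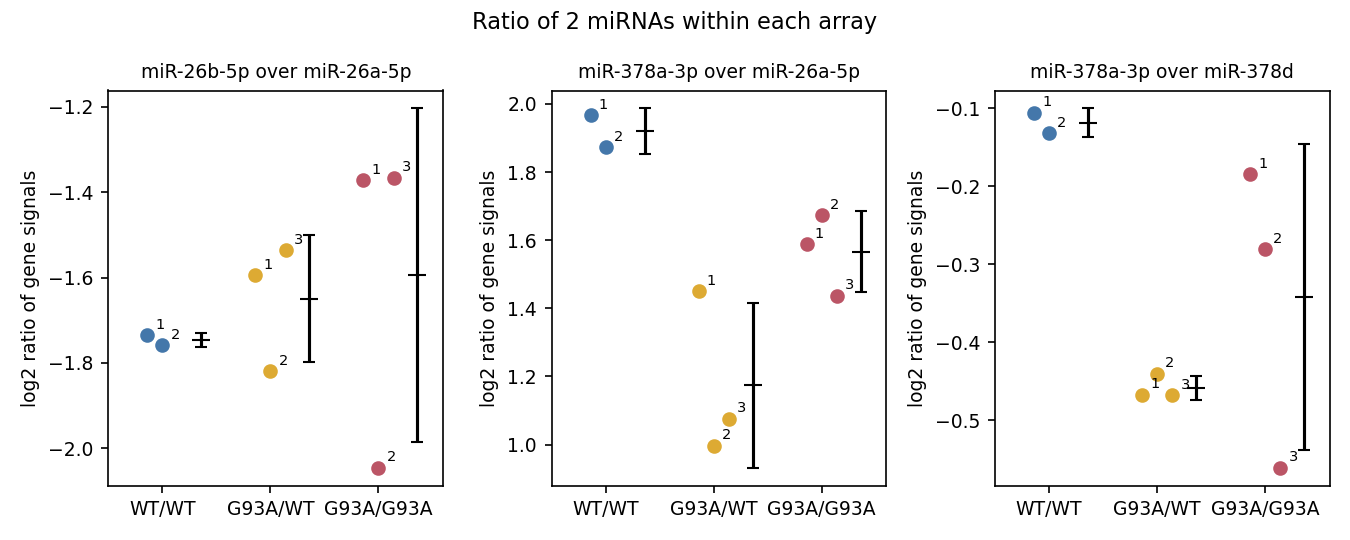
Log2 ratio between 2 miRNAs of the same array (vertical axis) in each medium sample of the 3 groups (horizontal axis); points are samples and bars the mean ± SD. The ratio of miR-378a-3p to miR-26a-5p is 1.97 and 1.87 in WT/WT and 1.67 or less on the other 6 arrays, while that of miR-26b-5p to miR-26a-5p overlaps between all groups.

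Over the 8 arrays, which share scaling and slide, the 2 miR-26 miRNAs correlated at Pearson r = 0.76, and miR-378a-3p correlated at 0.38 with miR-26a-5p and at 0.05 with miR-26b-5p. With its relatives miR-378a-3p correlated at 0.91 (miR-378c), 0.82 (miR-378d), 0.72 (miR-378b) and 0.59 (miR-378a-5p). Among the other 422 miRNAs detected on all 8 arrays, the 5 most like miR-26a-5p by this measure were miR-22-3p (0.968), miR-152-3p (0.961), miR-10a-5p (0.926), miR-151-5p (0.925) and miR-377-3p (0.922). Those most like miR-26b-5p were miR-377-3p (0.883), miR-697 (0.876), miR-6939-5p (0.863), miR-143-3p (0.856) and miR-30e-5p (0.856). Those most like miR-378a-3p were miR-23a-3p (0.964), miR-411-3p (0.963), miR-496a-3p (0.951), miR-30c-5p (0.943) and miR-140-5p (0.938). With quantile normalization in place of scaling, miR-152-3p and miR-10a-5p were again among the 5 for miR-26a-5p, miR-377-3p for miR-26b-5p, and miR-496a-3p and miR-140-5p for miR-378a-3p. miR-377-3p is in the lists of both miR-26 miRNAs.

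Other miRNAs known to promote differentiation, a list of 17 of which 14 were tested, had 0 higher, 1 lower and 13 not past the threshold in G93A/G93A against WT/WT, with 12 of 14 below zero and a median of −0.32. The 1 was miR-181a-5p, which represses Hox-A11, itself a repressor of MyoD. It was detected on no G93A/G93A array and was at least 3.26-fold lower than in WT/WT (limma adjusted p = 0.000891). All its G93A/G93A values were set to the floor and have no spread, so its p-values against this group rest partly on the floor. A fold given as at least is an approximate bound. It sets the mean of the measured group against the lowest signal among detected miRNAs on the other arrays. Between G93A/WT and WT/WT limma called 0 of the 14 (3 at an unadjusted p under 0.05), 7 lay below zero and the median was 0.00. Between G93A/G93A and G93A/WT miR-181a-5p was again the 1 lower call, at least 2.29-fold (limma adjusted p = 0.00093), 12 of 14 lay below zero and the median was −0.38. The first of its 2 calls held in all 19 other settings, and the second in 16 of 18, lost with the floor doubled and when the slide row was blocked. Over all tested miRNAs 50.9%, 44.1% and 58% lay below zero in the order of these comparisons. The medians over all were −0.01, 0.04 and −0.10, and limma called 8.55%, 3.90% and 10.6%.

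The brightest of these, the muscle miRNA miR-206-3p, differed by −0.27 ± 0.17 between G93A/G93A and WT/WT (SE; limma adjusted p = 0.351). Its relative miR-1a-3p differed by 0.08 (limma adjusted p = 0.817), miR-24-3p, expressed more as myoblasts differentiate, by −0.37 (limma adjusted p = 0.108), and miR-486a-5p, which represses Pax7, by −0.29 (limma adjusted p = 0.190). None of these 4 passed in the other 2 comparisons either.

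miRNAs that restrain differentiation or keep myoblasts cycling or quiescent, 10 tested of 12, had 0 higher, 3 lower and 7 not past the threshold in G93A/G93A against WT/WT, with 7 of 10 below zero and a median of −0.32. The 3 were miR-125b-5p, which represses Igf2 (−0.79 ± 0.11, SE; limma adjusted p = 0.00929), miR-23b-3p (−0.76 ± 0.14, SE; limma adjusted p = 0.0234) and miR-23a-3p, which represses myosin heavy chain genes (−0.53 ± 0.12, SE; limma adjusted p = 0.0437). Over 20 other settings, single samples left out included, the call held in 15 for miR-125b-5p, in 11 for miR-23b-3p and in 4 for miR-23a-3p, and all 3 lay below zero in each; none of the 3 passed when the slide row was blocked. The muscle miRNAs miR-133b-3p (0.25, limma adjusted p = 0.483) and miR-133a-3p (0.18, limma adjusted p = 0.829) did not pass. In G93A/WT against WT/WT 1 was higher: miR-682, detected on no WT/WT array, at least 2.73-fold (limma adjusted p = 0.000494), and the median was 0.02. Both WT/WT values of miR-682 were the floor, so this p-value rests partly on it. In G93A/G93A against G93A/WT miR-682 was the 1 lower call (limma adjusted p = 0.00029). As 1 of 3 G93A/G93A arrays detected it, its fitted size rests on the floor and is not given, and its call was lost under quantile normalization (adjusted p = 0.0748 in limma), in the authors' values (adjusted p = 0.915 in limma) and with the slide row as a block (adjusted p = 0.0849 in limma). Its call against WT/WT was lost under the first 2 of these settings. In this comparison all 10 lay below zero, with a median of −0.37. Over all tested miRNAs 50.9%, 44.1% and 58% lay below zero in the order of these comparisons. The medians over all were −0.01, 0.04 and −0.10, and limma called 8.55%, 3.90% and 10.6%.

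Of 7 miRNAs tied to mitochondrial, glucose or lipid metabolism, 5 were tested, and limma called 0 of them in any comparison (1, 1 and 2 at an unadjusted p under 0.05). Their medians were −0.13 between G93A/G93A and WT/WT, 0.33 between G93A/WT and WT/WT, and −0.21 between G93A/G93A and G93A/WT. Over all tested miRNAs the medians were −0.01, 0.04 and −0.10. miR-103-3p, a regulator of insulin sensitivity, had the same order of groups as miR-26a-5p, with differences of −0.41, 0.33 and −0.74 in that order, the last with a limma adjusted p of 0.0669. miR-122-5p, the liver's main miRNA, was detected on all 3 G93A/G93A arrays but on only 1 of 2 WT/WT arrays. It was higher in G93A/G93A than in WT/WT without passing (limma adjusted p = 0.078). Its fitted size rests on the floor and is not given. miR-103-3p and miR-122-5p were named here after their values were seen.

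Markers of the cell types that the cultures could hold did not all stay level between the groups. The summed scaled signal of 6 muscle miRNAs was 4522 to 5194 units in WT/WT, 4341 to 5258 in G93A/WT and 4094 to 5063 in G93A/G93A. Of these 6, 4 were detected on all arrays, and none of the 4 passed limma's test in any comparison (0 at an unadjusted p under 0.05), while miR-208b-3p was detected on no array. Fibroblast miRNAs summed to 475 to 517, 415 to 553 and 343 to 430 units, with 4 of 5 detected and miR-145a-5p undetected. All 4 lay below zero between G93A/G93A and WT/WT, as did 50.9% of all tested miRNAs. Of the 4, 1 passed, miR-199a-5p (−0.85, limma adjusted p = 0.0291). Epithelial miRNAs summed to 138 to 166 units in WT/WT, 61.2 to 85.0 in G93A/WT and 0 to 5.36 in G93A/G93A, where 6 of 7 were detected on no array and miR-205-5p on 2 of 3. All 5 tested epithelial miRNAs fell in G93A/G93A against either other group. Against WT/WT these were miR-205-5p (limma adjusted p = 0.00301), miR-203-3p (at least 7.68-fold, limma adjusted p = 0.00301), miR-429-3p (at least 6.19-fold, limma adjusted p = 0.0068), miR-200b-3p (at least 3.24-fold, limma adjusted p = 0.0143) and miR-200c-3p (at least 2.65-fold, limma adjusted p = 0.00306). All but miR-205-5p were at the floor, without spread, on every G93A/G93A array, so their p-values rest partly on it. The order WT/WT, G93A/WT, G93A/G93A of the epithelial sums is that of the means of miR-378a-3p. It is not particular to epithelial miRNAs, as the means of miR-125b-5p, miR-23a-3p, miR-23b-3p and miR-24-3p, among others, had it too. Serum and erythroid miRNAs summed to 1163 to 1216, 1381 to 1561 and 1061 to 1511 units, and those of leukocytes to 99.3 to 107, 133 to 146 and 131 to 159 units, with miR-223-3p alone detected. This myeloid miRNA rose in G93A/G93A against WT/WT, by 0.52 ± 0.12 on the log2 scale (SE; limma adjusted p = 0.0433). Whether the calls of miR-223-3p, miR-199a-5p and the epithelial miRNAs hold under other ways of processing was not tested. Endothelial miRNAs summed to 109 to 119, 87.4 to 113 and 93.1 to 101 units, and neural ones to 102 to 109, 94.0 to 117 and 93.8 to 123 units. The part of these cell types and of serum in the levels of the miR-26 and miR-378 miRNAs was not tested.

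**Figure D4:**
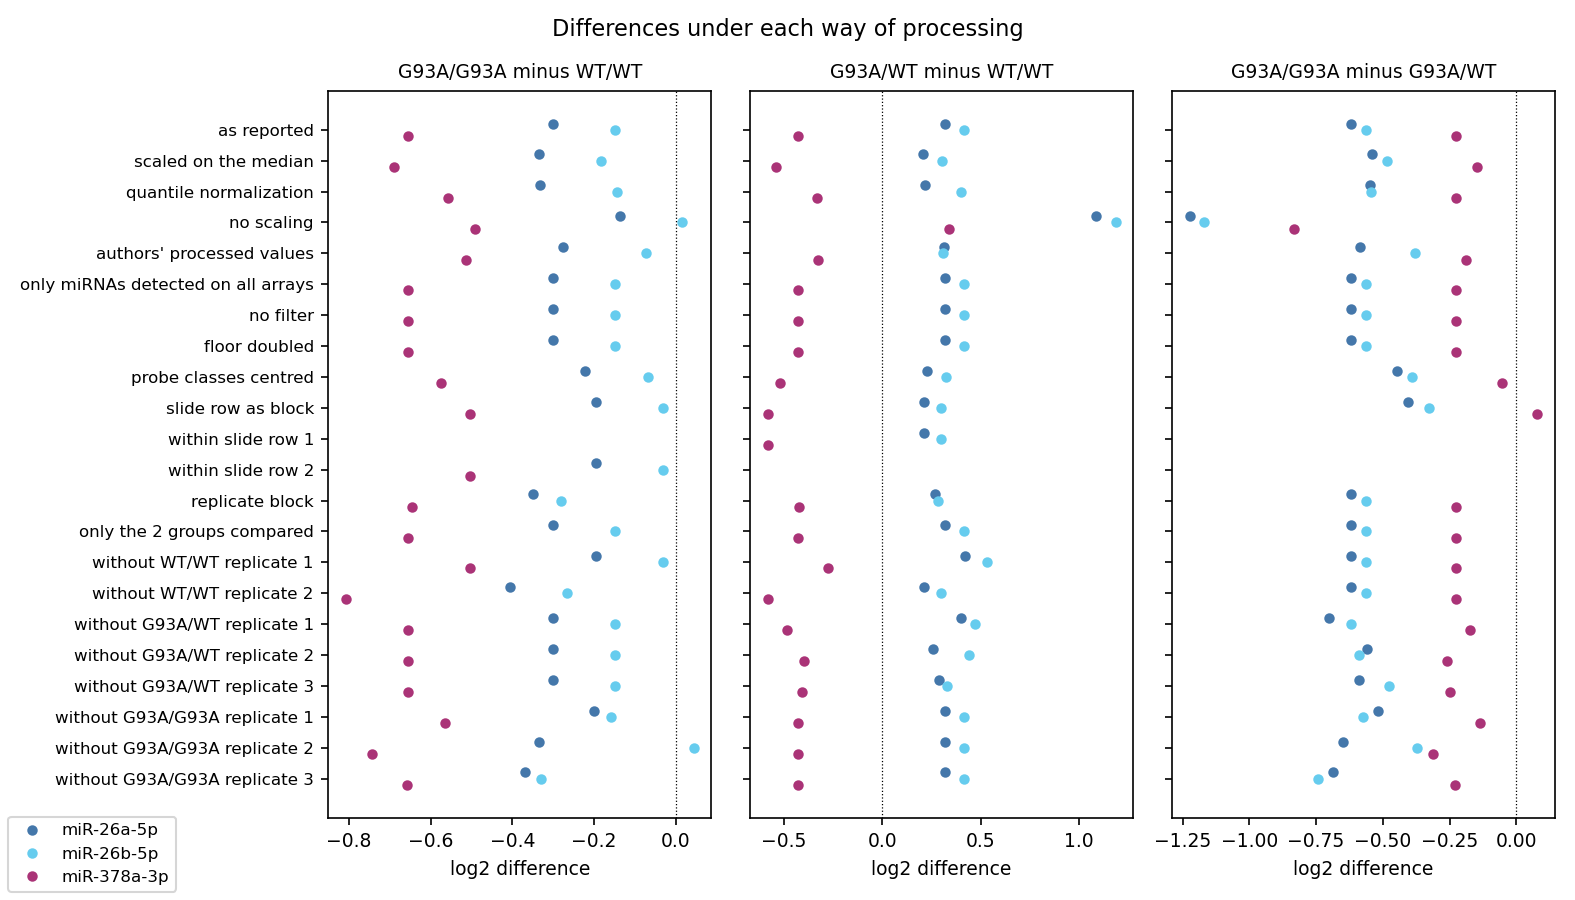
Log2 difference of the 3 miRNAs (horizontal axis, one panel per comparison) under each way of processing and with each sample left out (vertical axis); colours mark the miRNAs. Without scaling, all 3 miRNAs lie above zero between G93A/WT and WT/WT (miR-378a-3p at 0.34 in place of −0.43); blocked on the slide row, miR-378a-3p lies at 0.08 between G93A/G93A and G93A/WT.

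The sign of the miR-378a-3p difference between G93A/WT and WT/WT changed only when scaling was left out, as the plot over ways of processing shows. It stayed below zero when scaled on the median (−0.54), under quantile normalization (−0.33) and in the authors' processed values (−0.33). Without scaling it was 0.34, and those of miR-26a-5p and miR-26b-5p were 1.09 and 1.18, while the median over all tested miRNAs was 0.79. Relative to that median miR-378a-3p was thus again low and both miR-26 miRNAs high. In the authors' processed values the log2 ratio of miR-378a-3p to miR-26a-5p differed by −0.64 between G93A/WT and WT/WT, and by −0.24 between G93A/G93A and WT/WT.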

How the data were processed

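Each of the 8 samples was hybridised in 1 colour (Cy3) to an Agilent miRNA array, per the labels. The deposited values are linear intensity units per miRNA, with a detection call, as the scanner software wrote them; an undetected miRNA is listed at 0.1, per the file headers and values. The authors' processed table, made with a normalization that the sources used here do not give, holds linear intensity values of 492 mouse miRNAs, taken to log2 here, and served as an alternative. Mouse miRNAs were scaled to an equal 75th percentile over the 423 detected on all arrays, set to a floor of 1.52 and taken to log2. The 538 detected on at least 2 arrays were fitted over all groups with limma 3.58.1 in R 4.3.3, with Benjamini-Hochberg adjustment (threshold 0.05), after a test on simulated data. miRNAs, lists and tests were chosen with earlier results of these data known. Named were the 3 miRNAs, their relatives, list and marker members past the threshold, the 4 brightest of 2 lists and the 5 most alike; exceptions are stated. Slide positions come from the deposited file naming. The number of arrays limits the precision.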

Additional observations from a re-analysis of the deposited data

How the results depend on the processing

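Of 177 values of the 3 miRNAs under other settings, 165 moved by less than 1 SD between replicates, 12 moved further and 173 kept their sign. Not every setting could move them. Changing the filter, doubling the floor, fitting only 2 groups or leaving out a sample of the group not compared cannot change these differences. For G93A/G93A against WT/WT, the row block, row 2 alone and leaving out WT/WT 1 give the same estimate. The counts are therefore not a measure of robustness. The values that moved further, in the order G93A/G93A against WT/WT, G93A/WT against WT/WT and G93A/G93A against G93A/WT, were as follows. Without scaling, miR-26a-5p was −0.14, 1.09 and −1.22, miR-378a-3p −0.49, 0.34 and −0.83, and miR-26b-5p 1.18 and −1.17 in the last 2; the median over all tested miRNAs was then 0.08, 0.79 and −0.68. Centring miRNAs numbered below 1000 and the others separately gave −0.45 for miR-26a-5p and −0.054 for miR-378a-3p in the last comparison, and the slide row as a block −0.41 and 0.079. Leaving out single samples, miR-378a-3p ran from −0.81 to −0.50 in the first comparison, and miR-26a-5p from −0.70 to −0.52 in the last.

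Calls were less stable. In the first comparison 0 of 3 passed limma under quantile normalization, without scaling, with no filter, with the classes centred, with the row as a block, within row 2, with only the 2 groups fitted, and without any single sample of the 8 (0 to 0). In the second, 2 passed without scaling. In the last, 3 passed without scaling, 0 with no filter or with the row as a block, and 0 to 2 with single samples left out; miR-26a-5p was lost without G93A/WT 2, G93A/WT 3, G93A/G93A 1 or G93A/G93A 2, and 2 passed without G93A/G93A 3.

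Over all tested miRNAs the first comparison had 46 calls: 14 without scaling, 29 over miRNAs detected on all arrays, 11 with no filter, 18 with the classes centred, 7 with the row as a block, 9 within row 2, 17 with only 2 groups and 7 to 57 without single samples. The second had 21: 12 under quantile normalization, 130 without scaling, 5 in the authors' values, 0 over miRNAs detected on all arrays in limma (103 at an unadjusted p under 0.05), 11 with no filter, 34 with the floor doubled, 43 with only 2 groups and 7 to 61 without single samples. The last had 57: 149 without scaling, 31 with no filter, 0 with the row as a block in limma (73 at an unadjusted p under 0.05) and 38 to 122 without single samples. The split of higher and lower calls moved with the scaling: 20 and 26 in the first comparison became 5 and 28 on the median; 17 and 4 in the second became 16 and 11 on the median, 4 and 8 under quantile normalization, 2 and 3 in the authors' values and 130 and 0 without scaling; 29 and 28 in the last became 35 and 10 in the authors' values and 1 and 148 without scaling. The cause was not tested.

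Whether replicate numbers pair the samples could not be decided. Deviations of same-numbered samples from their group means correlated at −0.35 to 0.21 over 7 pairs. With 2 or 3 arrays per group these deviations cancel out within a group, so the 7 values depend on each other. With the replicate block 0, 0 and 0 of 3 miRNAs passed limma, and 10, 8 and 37 miRNAs over all. The 3 differences were then −0.35, −0.28 and −0.65 in the first comparison, 0.27, 0.28 and −0.42 in the second and −0.62, −0.56 and −0.23 in the last, in the order miR-26a-5p, miR-26b-5p and miR-378a-3p.

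Of 1056 values of 18 named miRNAs, 55 changed sign, 16 of them without scaling, and none of these passed the test either way. These counts, too, include settings that cannot move a difference. Scaling over all mouse miRNAs was not run, because on 3 arrays that percentile is an undetected miRNA's value. With 2 WT/WT samples, leaving out 1 assumes that the other varies like the remaining groups. miR-26b-5p, the dimmest of the 3, is the most limited by its signal over error.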
